A study of Rattus norvegicus with 58 samples.

Results

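The genes described here are 9 genes of glucose and glycogen metabolism, measured in rat liver and kidney after 5 days of dosing with 4-methylcyclohexanemethanol (MCHM). They are Pck1, Pck2, Fbp1, Pc, Slc2a2, Gys2, Pygl, Pfkfb1 and Ppargc1a. A probe set, the group of short probes that reports 1 transcript on the array, belonged to the set when the platform annotation gave it a single gene symbol and that symbol was 1 of the 9. This found 12 probe sets among 31099, and 9 genes among the 14217 genes named by the 20826 probe sets with 1 symbol. Ppargc1a had 3 probe sets, Pck2 had 2 and each other gene had 1.

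MCHM, an alicyclic alcohol used in washing coal, was given by gavage to male Harlan Sprague-Dawley rats at 0, 0.1, 1, 10, 100, 300 or 500 mg/kg. Liver and kidney RNA was hybridised to Affymetrix rat genome arrays, with 5 arrays of control rats (0 mg/kg) and 4 arrays at each dose in each organ, 58 in all. All groups share the strain, the sex, the route and the 5 days, and arrays of 1 group are labelled as biological replicates. The sources used here give neither the vehicle nor the age of the rats. The deposited values are log2 signals from RMA, which condenses the probes into a single value for the set, so a difference of 1 is a doubling of the signal, and levels are compared within a probe set only.

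Liver and kidney cortex are the organs that release newly made glucose into the blood. In gluconeogenesis, pyruvate carboxylase (Pc) makes oxaloacetate, the phosphoenolpyruvate carboxykinases (Pck1 in the cytosol, Pck2 in mitochondria) turn it into phosphoenolpyruvate, and fructose-bisphosphatase (Fbp1) acts further up the same path. Liver also stores glucose as glycogen, built by the liver glycogen synthase Gys2 and broken down by the liver phosphorylase Pygl. Hormones of fasting raise Pck1 and the coactivator Ppargc1a through cyclic AMP. Pfkfb1, the liver form of the enzyme that makes and removes fructose 2,6-bisphosphate, sets the balance between glycolysis and gluconeogenesis.

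The organs carried the marker transcripts of their labels. The mean of the hepatocyte markers on the array was 13.87 to 13.99 across the 29 liver arrays, and in kidney the proximal tubule markers lay between 11.66 and 12.23 and the distal nephron markers between 10.06 and 10.58. Within an organ the correlation between a pair of arrays was at least 0.986, and 0 pairs were identical. A pair of kidney arrays stood apart. Replicate 3 at 300 mg/kg and replicate 3 at 500 mg/kg had means of 8.66 and 7.99 over the 11 markers of white and brown fat, against 4.72 to 5.51 on the other 27. Among those markers, Ucp1 of brown fat was at 13.80 and 12.41 there and between 4.27 and 7.34 elsewhere, and Adipoq was at 10.03 and 8.83 against 4.42 to 6.17, while Lep and Elovl3 were within the range of the other arrays. One control kidney, replicate 2, had a hepatocyte marker mean of 7.40, with the next highest kidney at 5.77. Kidney results that rest on these arrays are given with and without them below. In pieces of whole organ, fewer cells of a type and less RNA per cell cannot be told apart.

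In untreated rats, 6 of the 8 genes tested in both organs differed between liver and kidney. The question was where each gene is expressed, and the difference is the mean of the 5 control livers minus that of the 5 control kidneys in limma. Among the 8 members above the low-signal filter in both organs, 4 were higher in liver and 2 higher in kidney at an adjusted p under 0.05. Of all 10673 genes tested, 76.1% differed, 34.8% higher in liver and 41.3% higher in kidney, so a share of 6 in 8 is near the background. Without control kidney replicate 2, the array with hepatocyte transcripts, 6 members again passed, and on that array Gys2 (2.96) and Pfkfb1 (4.86) were within the range of the other control kidneys.

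Pfkfb1 had the largest excess in liver among the tested members. Its values were 10.02, 10.53, 10.13, 10.01 and 10.24 in the control livers and 4.69, 4.86, 4.74, 4.95 and 4.93 in the control kidneys. The groups lay far apart, and the difference was 5.35 (SE 0.30, limma adjusted p = 8.22e-22). No fold is given, because the control kidneys lay close to their arrays' 40th percentiles of 4.62 to 4.70, at the low end of the signal. Pygl, which releases glucose units from glycogen, had 11.28, 11.07, 11.15, 11.28 and 11.16 in liver against 8.98, 8.80, 8.59, 8.85 and 8.80 in kidney. Each liver was above each kidney, by 2.39 on average (SE 0.11, limma adjusted p = 5.44e-26), or 5.22-fold. Slc2a2, the glucose transporter of the hepatocyte membrane and of the blood side of the proximal tubule, had 11.63, 11.72, 11.62, 11.51 and 11.66 in liver and 10.61, 10.09, 9.80, 10.25 and 10.05 in kidney. Its difference was 1.47 (SE 0.13, limma adjusted p = 4.85e-14), or 2.76-fold. Pc was higher in liver by only 0.40 (SE 0.09, limma adjusted p = 0.000156), or 1.32-fold, and its lowest liver, 9.87, was above its highest kidney, 9.72.

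Gys2, the glycogen synthase of liver, did not pass the filter in kidney. Its values were 9.15, 9.24, 9.13, 9.17 and 9.12 in the control livers and 2.99, 2.96, 2.78, 2.71 and 2.95 in the control kidneys, and only 2 of the 29 kidney arrays, the pair with fat transcripts, rose above their own array's 40th percentile. A fit without the filter put liver above kidney by 6.29 (SE 0.38, limma adjusted p = 1.09e-20). The kidney values lie at the low end of the array, where a fold change is compressed and has no firm size.

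The other direction was led by Ppargc1a, the coactivator that switches on mitochondrial and gluconeogenic genes. Its brightest probe set read 5.57, 5.78, 5.62, 5.39 and 5.82 in the control livers and 9.41, 9.29, 9.56, 9.17 and 9.45 in the control kidneys. Each kidney exceeded each liver, with a liver minus kidney difference of -3.74 (SE 0.15, limma adjusted p = 8.23e-28), a 13.4-fold higher signal in kidney. The control livers lay toward the low end of the signal, with liver 40th percentiles of 4.61 to 4.71, so this fold has no firm size. The other Ppargc1a probe sets gave -3.34 and -3.86. Fbp1 also favoured kidney, with 12.75, 12.65, 12.66, 12.65 and 12.74 in liver against 13.82, 13.51, 13.50, 13.59 and 13.60 in kidney, a difference of -0.91 (SE 0.05, limma adjusted p = 2.20e-21) or 1.88-fold. The enzymes that make phosphoenolpyruvate did not pass the test between organs. Pck1 had means of 12.69 ± 0.24 (SD, n = 5) in liver and 13.04 ± 0.30 in kidney, a difference of -0.35 (95% interval -0.72 to 0.03, limma adjusted p = 0.0905), which passed with only the compared groups in the fit (adjusted p = 0.0385). It also passed without control liver replicate 2 (adjusted p = 0.0495) and without control kidney replicate 4 (adjusted p = 0.0276). The Pck1 difference did not pass in 8 of the 10 fits that left out 1 control array. Nor did it pass in 11 of the 12 other alternatives, where the limma adjusted p reached 0.127. Pck2 differed by 0.10 (95% interval -0.08 to 0.28, limma adjusted p = 0.300).

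**Figure D1:**
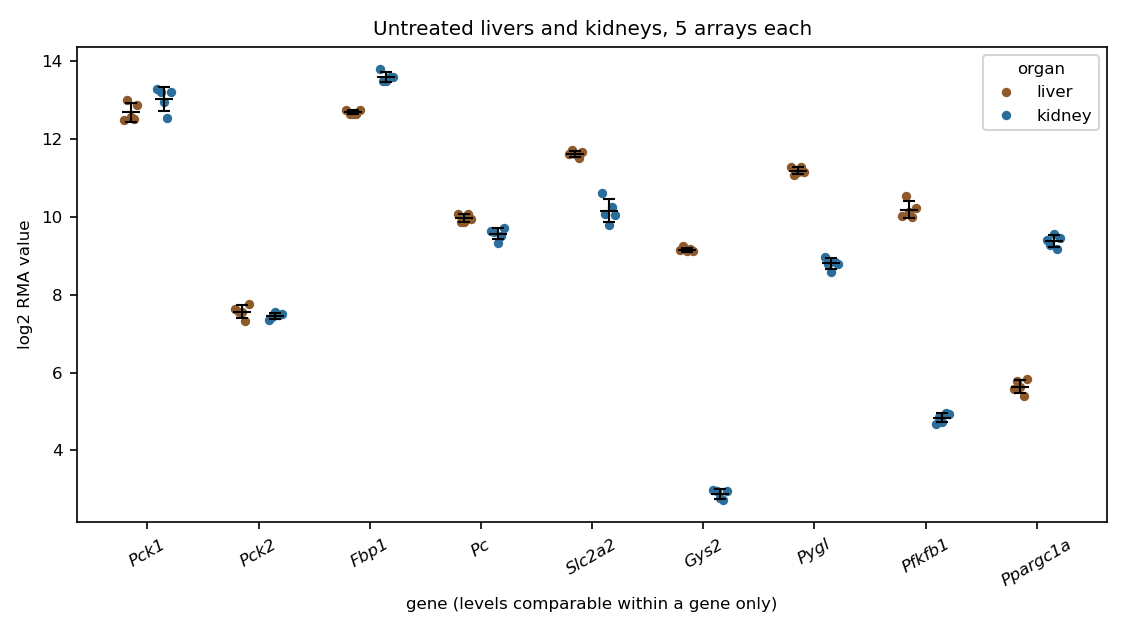
Log2 RMA values of the 9 genes on the 5 control liver arrays and 5 control kidney arrays, 1 point per array, with bars for mean ± SD. Gys2, Pfkfb1, Pygl and Slc2a2 sit higher in liver and Ppargc1a and Fbp1 higher in kidney, while Pck1 and Pck2 overlap.

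Promoter sequences are shown for Pck1 and Ppargc1a because this pair is the textbook example of glucose genes that answer to cyclic AMP, and the relation between their levels over the arrays is given further on. RefSeq windows on the GRCr8 build, the 250 bases before the annotated start, were found for 8 of the 9 genes, all except Pc. Capitals mark the letters of the cyclic AMP response element TGACGTCA or of its shorter core CGTCA, searched on both strands. The windows are chr3:182348322-182348571 (plus strand) for Pck1 and chr14:63634058-63634307 (plus strand) for Ppargc1a.
Pck1: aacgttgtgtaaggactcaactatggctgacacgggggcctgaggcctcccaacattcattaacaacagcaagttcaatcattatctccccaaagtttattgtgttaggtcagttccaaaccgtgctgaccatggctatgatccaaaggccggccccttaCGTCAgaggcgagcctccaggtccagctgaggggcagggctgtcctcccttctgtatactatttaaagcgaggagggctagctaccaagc
Ppargc1a: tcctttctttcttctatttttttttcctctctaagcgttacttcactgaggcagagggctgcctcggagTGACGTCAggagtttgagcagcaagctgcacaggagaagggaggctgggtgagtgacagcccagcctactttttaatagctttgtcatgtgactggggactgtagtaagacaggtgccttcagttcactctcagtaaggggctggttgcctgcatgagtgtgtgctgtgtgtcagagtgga
The full element was found in Ppargc1a, starting 181 bases before the start, and in 1.59% of all 33469 promoter windows. The core was found in Pck1, 90 bases before the start, and inside the full element of Ppargc1a, and in 18.2% of all windows. The letters GTAAACA of forkhead factors, CACGTG and TATAAA were in 0 of the 8 member windows and in 3.21%, 5.59% and 12.9% of all windows. A match of letters is a description of the sequence and shows no binding.

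In liver, 0 of the 9 members passed the test against control at any of the 6 doses, in the trend over dose rank, or in the test for a difference at any dose. Among all 11275 genes tested in liver, 0% passed at 0.1, 1, 10 and 100 mg/kg, 0.0266% at 300 mg/kg, 0.958% at 500 mg/kg, 1.84% in the trend and 0.727% in the test over any dose. At these shares, a count of 0 among 9 genes is near the background. An unadjusted limma p under 0.05 was reached by 0 members from 0.1 to 300 mg/kg, against 4.1%, 5.83%, 6.39%, 3.68% and 7.89% of all genes at the 5 doses. At 500 mg/kg it was reached by 2 members, Pc and Pygl, against 13.9% of all genes, and by 1 member, Pc, in the trend (16.6% of all genes) and over any dose (10.7%). The members' median difference there was -0.06, with 4 above and 5 below 0, and the median over all genes was 0.01.

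Among the gluconeogenic enzymes in liver, Pck1 was the most variable between rats. Its 500 mg/kg livers read 12.25, 13.11, 11.48 and 12.86, against 12.49, 13.01, 12.57, 12.51 and 12.88 in the controls. Replicate 3 alone lay far below the others, and the groups overlapped. The difference was -0.27 (95% interval -0.75 to 0.21, limma adjusted p = 0.668), and it was 0.05 without that array. Pck1 had its highest mean difference at 10 mg/kg, at 0.36 (SE 0.23, limma adjusted p = 0.832). Pck2 differed by -0.16 (95% interval -0.38 to 0.06, limma adjusted p = 0.550) at 500 mg/kg, and Fbp1 by -0.06 (95% interval -0.18 to 0.06, limma adjusted p = 0.698). Fbp1 was the steadiest of the gluconeogenic enzymes, within 12.46 to 12.79 on all 29 liver arrays.

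Pc, the entry enzyme of gluconeogenesis from pyruvate, was the member that came closest to a dose trend. The control livers read 10.08, 9.88, 9.87, 10.08 and 9.94. At 300 mg/kg the values were 9.65, 9.88, 9.85 and 9.89, and at 500 mg/kg 9.78, 9.96, 9.60 and 9.67. At 500 mg/kg, 3 of the 4 arrays lay below each control, and replicate 2 lay among them. At the lower doses the ranges were 9.83 to 10.25 at 0.1 mg/kg, 9.78 to 10.16 at 1 mg/kg, 9.90 to 10.09 at 10 mg/kg and 9.84 to 9.98 at 100 mg/kg, all overlapping the controls. The difference at 500 mg/kg was -0.22 (95% interval -0.39 to -0.04, limma adjusted p = 0.219), and the slope was -0.04 per dose rank (SE 0.01, limma adjusted p = 0.0663). Leaving out control replicate 2, control replicate 3 or the 500 mg/kg replicate 2 brought that slope past the threshold, with adjusted p of 0.0462, 0.0397 and 0.0494. In those fits 210 of 11265, 255 of 11268 and 183 of 11265 genes passed. In 26 of the 29 fits that left out 1 array the slope of Pc did not pass. It also missed with the replicate number as a block (limma adjusted p = 0.0692).

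With the dose in mg/kg as the term, an alternative scale on which the lower doses lie close together, Pc fell in liver by 0.05 log2 units per 100 mg/kg (SE 0.01, limma adjusted p = 0.00922). It was the only 1 of the 9 members to pass on that scale, where 7.21% of all genes passed. The call held with each of the 29 liver arrays left out in turn, at adjusted p between 0.00277 and 0.0470. This scale was planned as an alternative to the rank, and the leave-out check on it was added after the data were seen.

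**Figure D2:**
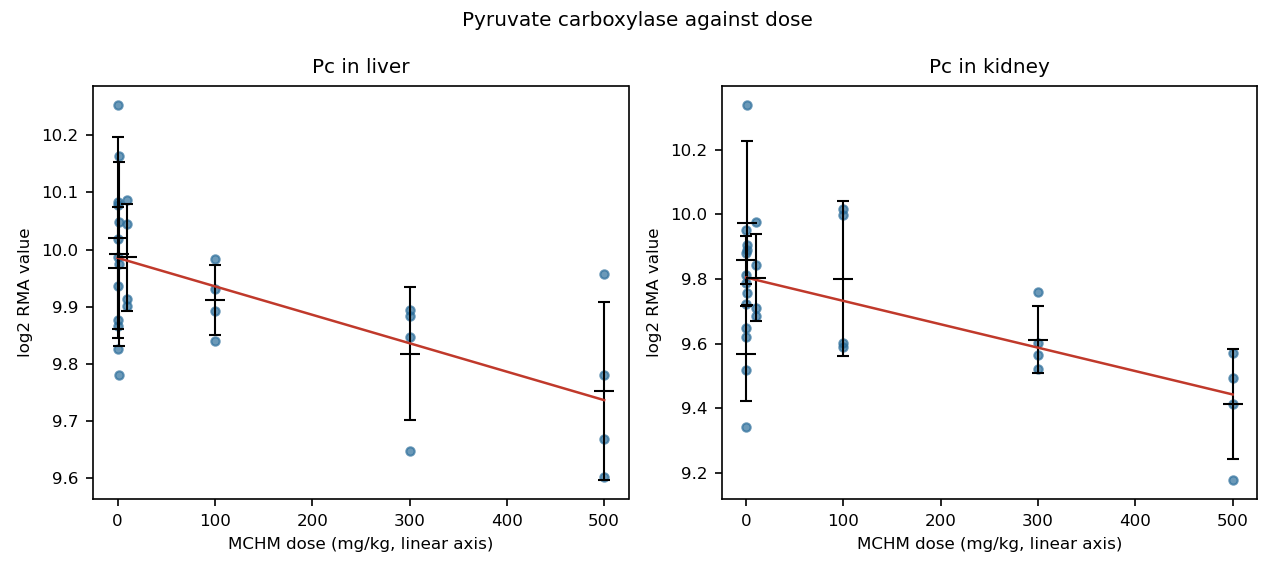
Log2 RMA value of Pc on each array against dose in mg/kg on a linear axis, liver at left and kidney at right, with bars for the mean ± SD of each dose and a least-squares line. In liver the values at 500 mg/kg run from 9.60 to 9.96 against 9.87 to 10.08 in controls, and in kidney the 0.1 and 1 mg/kg values lie above all 5 controls.

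The coactivator Ppargc1a was low in liver, and its probe sets gave differences of unlike size. At 500 mg/kg the brightest probe set read 5.52, 5.63, 4.84 and 5.23, against 5.39 to 5.82 in the controls, so that 2 of the 4 arrays lay below the control range. The difference was -0.33 (95% interval -0.76 to 0.09, limma adjusted p = 0.508). The other probe sets, fitted with every probe set as a unit, gave -0.75 (adjusted p = 0.249) and -0.61 (adjusted p = 0.413), all below 0 and none past the threshold. These probe sets were above their array's 40th percentile on 29, 20 and 9 of the 29 liver arrays, so the dimmer ones rest near the floor of the array.

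Transport and glycogen genes in liver stayed close to control. Slc2a2 at 10 mg/kg read 11.92, 11.80, 11.73 and 11.74, all above the highest control of 11.72, and this was the only member in liver with no overlap with control at any dose. In that comparison 2.41% of all genes did not overlap, and the share was 1.48%, 2.4%, 1.51%, 3% and 5.59% at 0.1, 1, 100, 300 and 500 mg/kg, with 0 members. The Slc2a2 difference there was 0.17 (SE 0.12, limma adjusted p = 0.861), and at 500 mg/kg it was 0.14 (95% interval -0.11 to 0.39, limma adjusted p = 0.668). Pygl at 500 mg/kg read 11.25, 11.40, 11.26 and 11.42 against 11.07 to 11.28 in controls, a difference of 0.14 (95% interval 0.01 to 0.27, limma adjusted p = 0.295). Gys2 differed by 0.04 (95% interval -0.14 to 0.23, limma adjusted p = 0.891) and Pfkfb1 by 0.14 (95% interval -0.24 to 0.53, limma adjusted p = 0.796). These intervals leave room for changes of the sizes they span, and a p that misses the threshold does not show that the levels were equal.

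**Figure D3:**
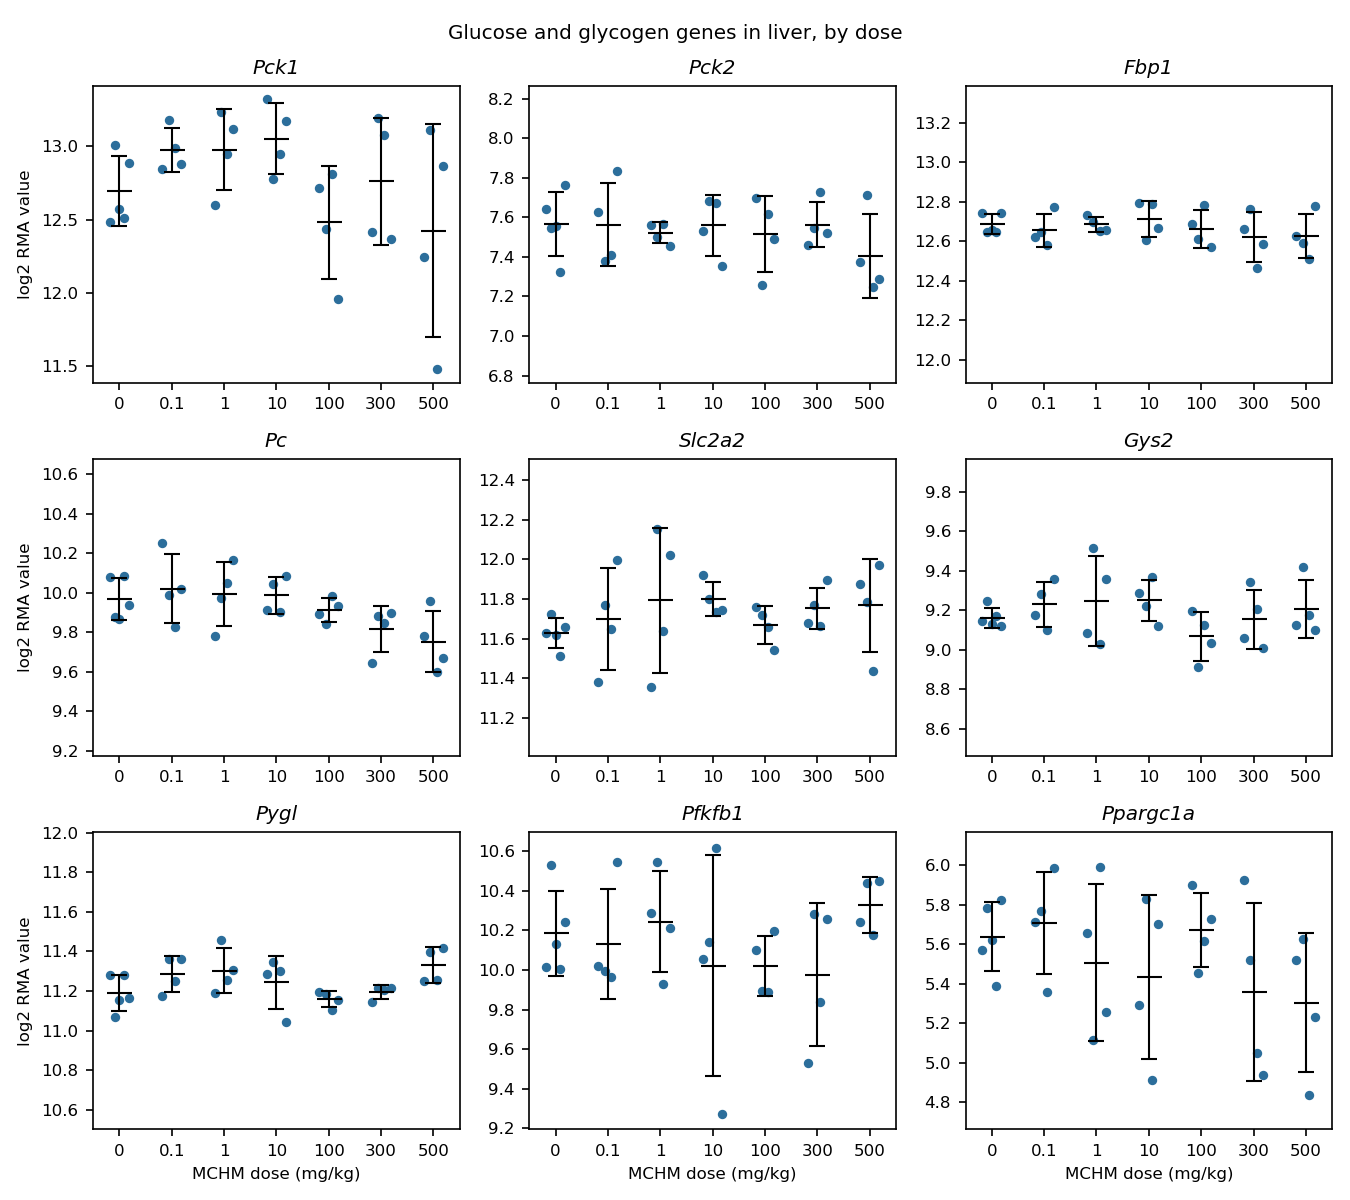
Log2 RMA values of the 9 genes on each of the 29 liver arrays, by dose, 1 point per array with bars for mean ± SD, and a different axis range per gene. Pck1 at 500 mg/kg spreads from 11.48 to 13.11, while Fbp1 stays between 12.46 and 12.79 at all doses.

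In kidney, 0 of the 8 tested members passed at any dose, in the trend over dose rank or over any dose. Of the 11204 genes tested, 0% passed from 0.1 to 100 mg/kg, 0.0268% at 300 and at 500 mg/kg, and 0.152% in the trend and over any dose. An unadjusted limma p under 0.05 was reached by 2 members at 0.1 mg/kg (8.14% of all genes), 2 at 1 mg/kg (9.33%), 1 at 10 mg/kg (6.27%), 1 at 100 mg/kg (4.81%), 2 at 300 mg/kg (5.74%) and 1 at 500 mg/kg (9.58%). It was reached by 1 in the trend (9.76%), Pygl, and by 1 over any dose (7.93%), Pc. Without the pair of kidneys with fat transcripts 0 members passed the adjusted test, and the unadjusted counts were 1 at 300 mg/kg (3.45% of all genes), 0 in the trend (7%) and as before elsewhere. Without control kidney replicate 2 again 0 passed, and the unadjusted count fell to 1 at 0.1 mg/kg (6.79%) and was as before elsewhere. Without overlap with control were 0 members at 100 mg/kg (1.45% of all genes) and 0 at 300 mg/kg (1.38%).

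Pc had the smallest p over any dose in kidney, and its means did not follow the order of the doses. Control kidneys read 9.65, 9.62, 9.34, 9.52 and 9.72. At 0.1 mg/kg the values were 9.81, 9.95, 9.88 and 9.79, and at 1 mg/kg 10.34, 9.90, 9.76 and 9.89. Both groups lay above each control, whereas 1.87% and 1.92% of all genes did not overlap with control at these doses. At 500 mg/kg the values were 9.57, 9.18, 9.49 and 9.41, within or below the control range. The difference from control was 0.29 at 0.1 mg/kg, 0.40 (SE 0.11, limma adjusted p = 0.341) at 1 mg/kg, 0.23 at 10 and at 100 mg/kg, 0.04 at 300 mg/kg and -0.16 at 500 mg/kg. At 1 mg/kg it was 0.42 (SE 0.12, limma adjusted p = 0.467) without control replicate 2. The test over any dose gave an adjusted p of 0.168, or 0.359 without the pair with fat transcripts and 0.204 without control replicate 2. On the mg/kg scale Pc fell by 0.07 per 100 mg/kg (SE 0.02, limma adjusted p = 0.0474), where 1.65% of all genes passed. This call rests on few arrays: it held in 9 of the 29 fits that left out 1 array, at adjusted p of 0.0120 to 0.173, and not without the pair of kidneys with fat transcripts (adjusted p = 0.158).

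Among the other gluconeogenic genes in kidney, Pck2 at 500 mg/kg read 7.63, 7.83, 7.57 and 7.61, all above the highest control of 7.56. The difference was 0.20 (SE 0.08, limma adjusted p = 0.385), and 3.19% of all genes did not overlap there. It was 0.23 (SE 0.09, limma adjusted p = 0.565) without the pair with fat transcripts and 0.19 (SE 0.08, limma adjusted p = 0.662) without control replicate 2. Its dimmer probe set gave 0.15 (SE 0.11, adjusted p = 0.757) with overlapping groups. Pck1 at 500 mg/kg read 13.04, 12.85, 13.13 and 13.12 against 12.55 to 13.28 in controls, and Fbp1 read 13.60, 13.52, 13.65 and 13.62 against 13.50 to 13.82, both within the control range. The Pck1 difference was -0.00466 (SE 0.13), and it turned to 0.0383 (SE 0.14) without control replicate 2. The brightest Ppargc1a probe set was lowest at 1 mg/kg, with 8.96, 9.18, 9.06 and 9.04 against 9.17 to 9.56 in controls, where only replicate 2 reached the control range. The difference was -0.31 (SE 0.09, limma adjusted p = 0.350), and it was -0.34 (SE 0.09, limma adjusted p = 0.467) without control replicate 2. The other probe sets gave -0.13 and -0.06 at that dose, and their lowest means were at 100 and at 300 mg/kg. The mean at 100 mg/kg, 8.12, rests on 1 array at 6.36. The median of that group, 8.60, lay above the control median of 8.53. Slc2a2 differed by -0.01 (95% interval -0.32 to 0.30, limma adjusted p = 0.989) at 500 mg/kg.

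The glycogen genes and Pfkfb1 were set apart in kidney by the pair of arrays with fat transcripts. Gys2 read 7.12 on replicate 3 at 300 mg/kg and 5.60 on replicate 3 at 500 mg/kg, against 2.69 to 3.20 on the other 27 arrays. Pfkfb1 read 7.37 and 6.41 there, against 4.05 to 5.33. Pygl read 9.91 and 9.46, against 8.59 to 9.09, so all of these genes were highest on exactly those arrays. On the remaining 300 mg/kg kidneys Pygl read 8.87, 8.97 and 8.96, within the control range of 8.59 to 8.98. Pck1 had its highest kidney value, 13.43, on the first of the pair, while Ppargc1a, Pc, Fbp1 and Slc2a2 lay within the range of the other arrays. Of the 11 fat markers, 7 were above the range of the other arrays on both (Ucp1, Cidea, Adipoq, Plin1, Cfd, Fabp4 and Plin4), and the part of fat RNA in these values was not tested.

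With all arrays, the differences of Pygl were 0.37 (SE 0.15, limma adjusted p = 0.831) at 300 mg/kg and 0.25 (SE 0.15, limma adjusted p = 0.613) at 500 mg/kg, and that of Pfkfb1 at 500 mg/kg was 0.29 (SE 0.40, limma adjusted p = 0.856). Without the pair, the Pygl difference at 300 mg/kg was 0.13 (SE 0.08, limma adjusted p = 0.9998). For 500 mg/kg the values were then 0.11 for Pygl and -0.13 for Pfkfb1, so the sign of Pfkfb1 turned. The Pygl slope per dose rank was 0.04 (SE 0.02, limma adjusted p = 0.420) with all arrays and 0.01 (SE 0.01, limma adjusted p = 0.907) without the pair. At 10 mg/kg Pfkfb1 read 4.56, 4.38, 4.58 and 4.51, all below the lowest control of 4.69, where 1.63% of all genes did not overlap. The difference was -0.33 (SE 0.40, limma adjusted p = 0.917). That SE rests on the spread of all dose groups together, the pair included. The SD of Pfkfb1 was 0.12 in controls and 0.09 at 10 mg/kg, against 0.61, 1.37 and 0.86 at 100, 300 and 500 mg/kg. Without the pair, the SE of its 500 mg/kg difference was 0.20. Pfkfb1 was above its array's 40th percentile on 19 of 29 kidney arrays, near the low end of the signal.

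**Figure D4:**
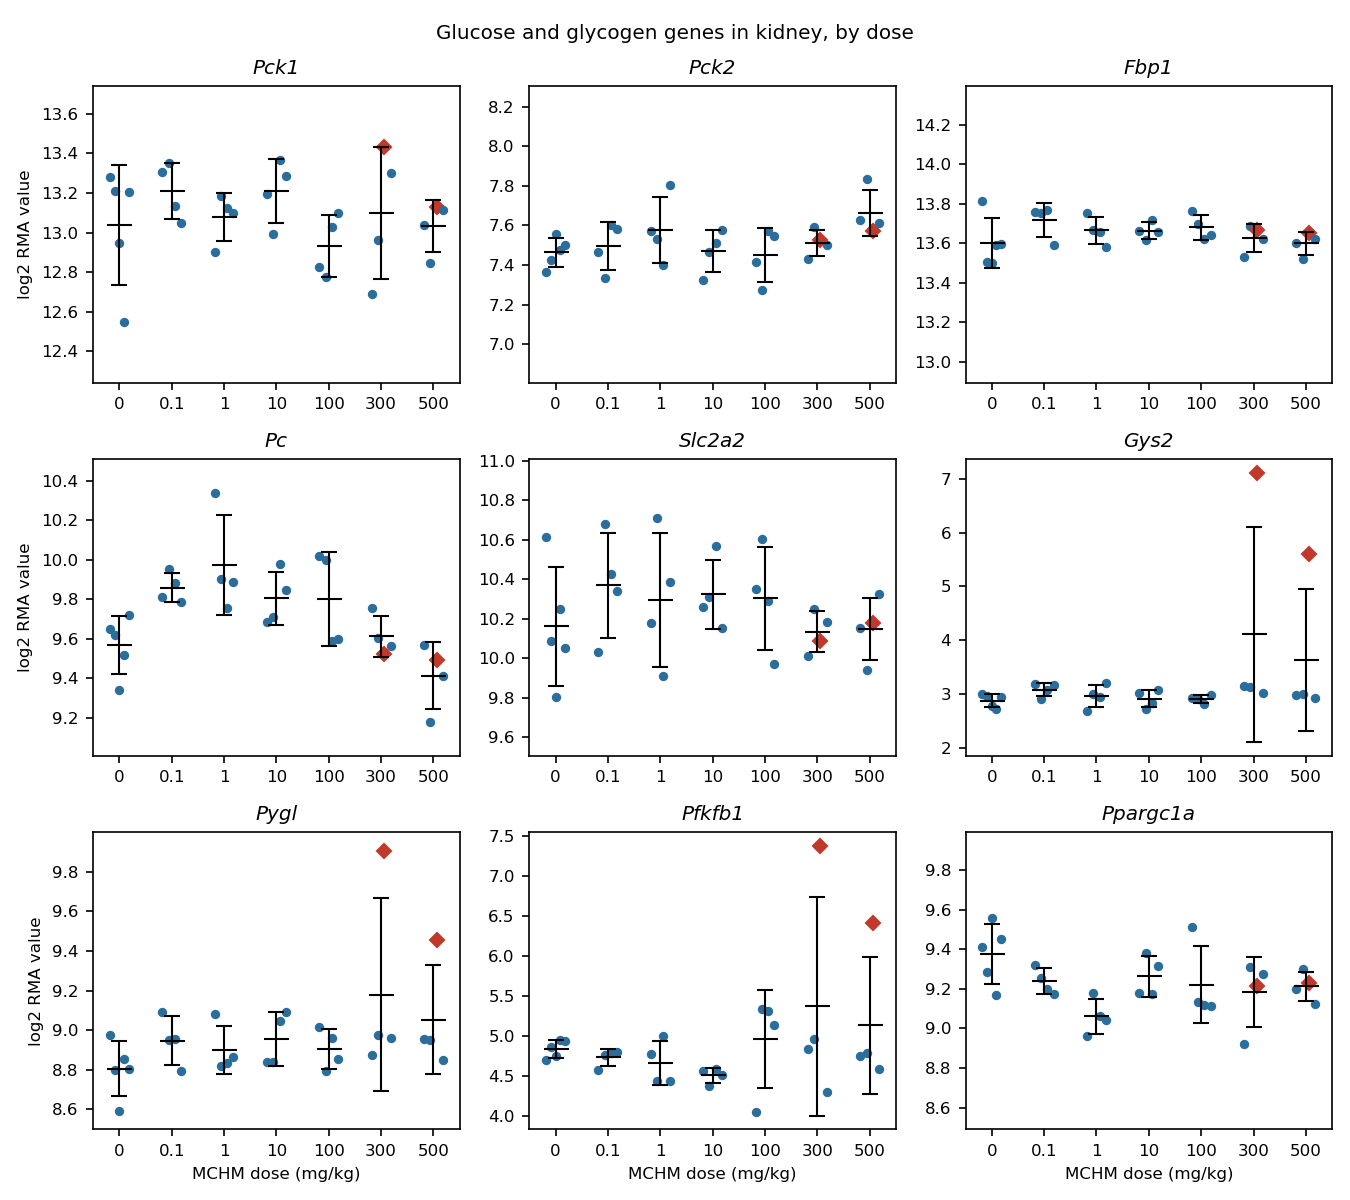
Log2 RMA values of the 9 genes on each of the 29 kidney arrays, by dose, with bars for mean ± SD and a different axis range per gene; diamonds mark replicate 3 at 300 and at 500 mg/kg. The diamonds stand above all other arrays for Gys2, Pygl and Pfkfb1, and the Pc points at 0.1 and 1 mg/kg lie above the controls.

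**Figure D5:**
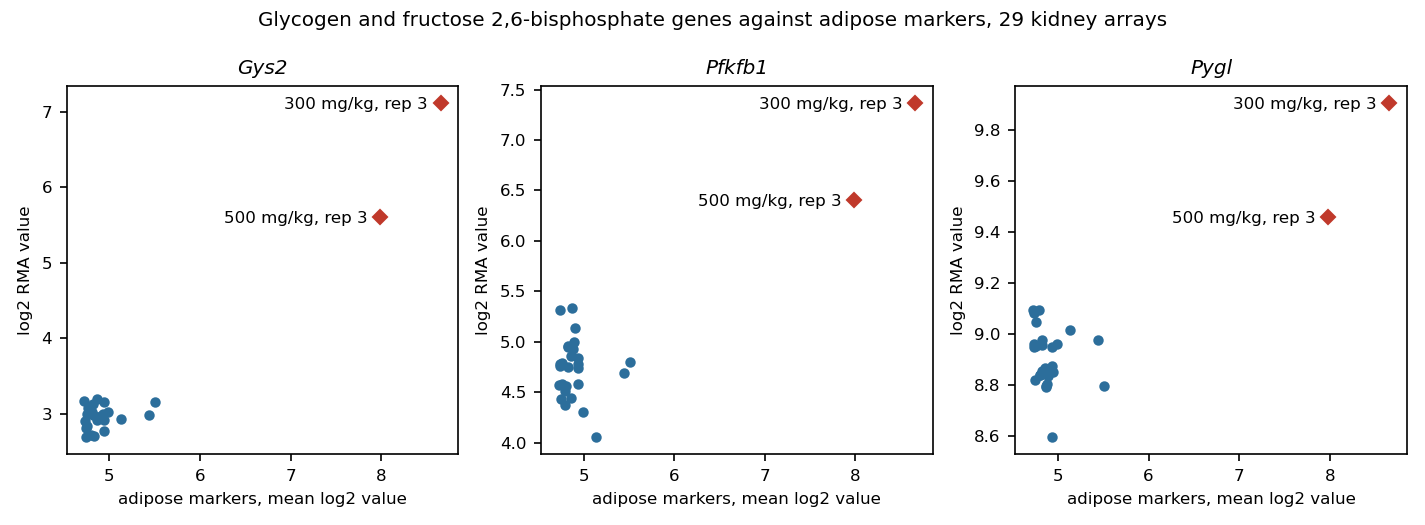
Log2 RMA value of Gys2, Pfkfb1 and Pygl against the mean log2 value of 11 fat markers on the 29 kidney arrays; diamonds mark replicate 3 at 300 and at 500 mg/kg. The diamonds, at marker means of 8.66 and 7.99, carry the highest value of each gene, and the other 27 arrays lie at marker means of 4.72 to 5.51.

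The difference between the liver effect and the kidney effect was tested for each member in 1 fit over both organs, with the organs taken as unpaired. Of 8 members, 0 passed at 300 mg/kg, where 0% of all genes passed, at 500 mg/kg, where 0.122% passed, or in the slope over dose rank, where 0.131% passed. An unadjusted p under 0.05 for that slope was reached by 0 members and 8.9% of all genes. The smallest adjusted p was that of Pck2 at 500 mg/kg, where the liver effect minus the kidney effect was -0.36 (95% interval -0.63 to -0.09, limma adjusted p = 0.367). For Pc the slopes in liver and kidney differed by -0.00477 per rank (95% interval -0.05 to 0.04, limma adjusted p = 0.973).

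The wider pathway was read from 5 lists, of gluconeogenesis, glycolysis, glycogen, glucose transport, and hormone signal and transcription, without the 9 members. The lists hold 102 genes, of which 86 could be tested in liver and 87 in kidney. At 500 mg/kg in liver, Gpt and Tat of the gluconeogenesis list rose and 0 listed genes fell, 2 of 86 genes against 0.958% of all genes. The lists were chosen with earlier results of these data known, so this share is a description and not a test of the pathway. Gpt, the alanine transaminase that hands alanine carbon to pyruvate, ran from 8.33 to 8.77 in control livers and from 9.66 to 10.06 in the livers of the top dose, a rise of 1.22 (SE 0.18, limma adjusted p = 0.00105). Tat, the tyrosine aminotransferase induced by glucocorticoids and fasting, ran from 8.38 to 9.15 in controls and from 9.45 to 10.64 in the livers of the top dose, a rise of 1.39 (SE 0.29, limma adjusted p = 0.0191). The groups did not overlap for either gene, as for 5.59% of all genes. Gpt and Tat also passed the liver trend over dose rank (limma adjusted p = 0.000143 and 0.0380), which 1.84% of all genes passed. In the test over any dose in liver Gpt passed (limma adjusted p = 0.00853), as did 0.727% of all genes, and Tat did not (adjusted p = 0.181). The 11 tested genes of that list had a median difference of 0.06, with 7 above 0, against 0.01 over all genes.

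In the glycogen list, 0 of 17 genes passed at 500 mg/kg, and their median difference was -0.06, with 6 above 0. Ugp2, which makes the UDP-glucose used by glycogen synthase, passed the test over any dose in liver (limma adjusted p = 0.0127), which 0.727% of all genes passed. Control livers read between 11.35 and 11.72, those given 1 mg/kg between 11.76 and 12.06, and those given 500 mg/kg between 11.32 and 11.52. The highest mean was thus at 1 mg/kg, where the difference was 0.36 (SE 0.08, limma adjusted p = 0.351). Gys2, the synthase that uses UDP-glucose, and Pygl, which breaks glycogen down, did not pass the test over any dose (adjusted p of 0.850 and 0.578). The smallest p values of the list at 500 mg/kg were those of Phka2, a phosphorylase kinase subunit, at -0.46 (limma adjusted p = 0.0911), and Gaa, the lysosomal glucosidase that degrades glycogen, at -0.13 (limma adjusted p = 0.408).

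The remaining lists held 0 calls at 500 mg/kg in liver. Of 26 glycolysis genes 21 were above 0, with a median of 0.07 against 0.01 over all genes. The smallest p values were those of Pdhb of the pyruvate dehydrogenase complex at 0.24 (limma adjusted p = 0.171) and the phosphoglycerate mutase Pgam1 at 0.13 (limma adjusted p = 0.176). The share of all genes above 0 was not computed, so the counts above 0 in the lists have no background. Of 26 signal and transcription genes 16 were above 0, with a median of 0.07. Trib3, an inhibitor of insulin signalling through Akt, differed by 1.66 (SE 0.46, limma adjusted p = 0.0804). Its difference was 1.68 at the lowest dose, 0.70 at 1 mg/kg, 1.33 at 10 mg/kg, 1.52 at 100 mg/kg and 1.33 at 300 mg/kg, none past the threshold, and the test over any dose gave an adjusted p of 0.247. Txnip, an inhibitor of glucose uptake, differed by -0.28 (limma adjusted p = 0.101). Of 6 transport genes 3 were above 0, with Slc2a5, the fructose transporter, at 0.72 (limma adjusted p = 0.0792) and Slc16a1, a lactate and pyruvate transporter, at -0.13 (limma adjusted p = 0.672). In kidney 0 of the 87 listed genes passed at 500 mg/kg, where 0.0268% of all genes passed, or in the trend or over any dose, where 0.152% passed, so this count is near the background.

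Between untreated organs 72 of 84 tested list genes differed, 31 higher in liver and 41 higher in kidney, against 76.1% of all genes, 34.8% higher in liver and 41.3% higher in kidney. In the glycogen list 6 were higher in liver and 7 in kidney, and in glycolysis 6 and 17. The glycogen anchor Stbd1 was higher in liver by 4.42 and the branching enzyme Gbe1 by 1.76, on the same side as Gys2 and Pygl. The lactate dehydrogenase subunit Ldhb gave a liver minus kidney difference of -6.76 and the sodium-glucose transporter Slc5a2 one of -4.57, both higher in kidney, while Gckr, the regulator of glucokinase, was higher in liver by 4.63.

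Correlations between members were computed over the arrays of an organ. After removal of the dose means, 0 of 36 member pairs in liver passed a permutation test adjusted over the pairs (smallest adjusted p = 0.113, 9 pairs at an unadjusted p under 0.05). Those 9 pairs all had r above 0, from 0.37 (Slc2a2 and Pfkfb1) to 0.54 (Slc2a2 and Pygl, and Gys2 and Pfkfb1), with rho from 0.31 to 0.50 and adjusted p from 0.113 to 0.191. The share among pairs of other genes was not computed in either organ. Whether such counts are particular to these members was therefore not tested. Without the 2 arrays farthest from the median of the pair's first gene, in the order of the opening list, r of those 9 pairs ran from 0.24 to 0.51. In kidney 0 of 28 pairs passed over all 29 arrays (smallest permutation adjusted p for r = 0.16, 5 pairs unadjusted). Over the 27 arrays without the fat pair 0 passed again (smallest adjusted p for r = 0.0728, 5 pairs unadjusted). The smallest p there was that of Fbp1 and Pygl, with r = 0.65 and rho = 0.58 (permutation p = 0.0026 and 0.00466, adjusted p = 0.0728 and 0.0652), and r = 0.53 without the 2 arrays farthest from the median of Fbp1. Missing the threshold does not show that the members vary independently. Pck1 and Ppargc1a had r = 0.14 and rho = 0.06 in liver (permutation p = 0.546 and 0.790, adjusted p = 0.702 and 0.841), and r was -0.13 without the 2 arrays farthest from the median of Pck1. In kidney, over the 27 arrays, the pair had r = 0.25 and rho = 0.08 (permutation p = 0.346 and 0.740, adjusted p = 0.780 and 0.970), and r = -0.12 without the farthest 2. By the same measure, the liver genes most like Pc among 11274 were Nnt (r = 0.78), Plg (r = 0.77) and Aplp2 (r = 0.76) over 29 arrays that share their libraries, given as a description.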

How the data were processed

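The values deposited by the authors are log2 signals, summarised with RMA per the submitters' processing notes, which give no version. The sources used here do not say if both organs went through 1 normalization, which bears on each comparison between organs. That the scale is log2 follows from the range of the values, and 0 sample columns were left unmapped. Names come from the platform annotation, and all 12 member probe sets had the same symbol in the gene table of assembly GRCr8.

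Probe sets entered an organ's fit if they exceeded the 40th percentile of 4 or more of its arrays. The brightest of a gene's probe sets stood for the gene. Groups were compared in limma 3.58.1 under R 4.3.3 (lmFit, eBayes with trend), fitting the 29 arrays of an organ together, or the 14 groups of both organs. A call is a two-sided Benjamini-Hochberg adjusted p under 0.05 over all genes tested. The trend used the dose rank. Correlations used 100000 permutations, within dose groups after removal of the dose means. Where the dose means were kept, the permutations ran over all arrays used. The scripts were tested on simulated data. The number of arrays limits the precision.

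The members, lists and tests were chosen with earlier results of these data known. Named are all members, list genes called at a dose, otherwise the 2 of smallest p at 500 mg/kg in liver, and the 3 genes most like the member with the smallest p over any dose in liver. Of the 72 list genes that differ between untreated organs only a few are named, chosen after their values were seen. Alternatives were other filters, probe set rules, eBayes settings, array weights, normalizations, the replicate number as a block, dose in mg/kg and each array left out. The replicate numbers were not treated as pairs. Over 84 same-numbered pairs of different doses the mean correlation of deviations was -0.01 in liver and 0.02 in kidney. Of these, 9 and 21 pairs were over 0.1. For the liver and kidney of the same dose and number the mean was 0.14, against -0.04 for other numbers of that dose. It was over 0.1 in 20 of 29 pairs, so the unpaired comparisons between organs leave such a link out.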

Additional observations from a re-analysis of the deposited data

Results flagged for a closer look

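Each probe set was screened in each of 14 groups for an array far from the rest of its group. Chance marks about 1 group in 20, or 8.4 of the 168 groups tested, and 12 were marked. Most concern kidney. On the pair of kidneys with fat transcripts, Gys2 was far above its group at 7.12 (300 mg/kg, replicate 3, next 3.16) and 5.60 (500 mg/kg, replicate 3, next 3.00), Pygl at 9.91 (300 mg/kg, replicate 3) and Pfkfb1 at 6.41 (500 mg/kg, replicate 3).

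The other marked values lay on arrays outside that pair. In kidney Pfkfb1 was far below its group at 4.57 (0.1 mg/kg, replicate 1) and 4.05 (100 mg/kg, replicate 1), and Fbp1 at 13.59 (0.1 mg/kg, replicate 4). Ppargc1a was far above its group in kidney at 9.51 on its brightest probe set (100 mg/kg, replicate 1) and at 8.93 on another (10 mg/kg, replicate 2). In liver Pfkfb1 was high at 10.55 (0.1 mg/kg, replicate 4), Pygl low at 11.15 (300 mg/kg, replicate 1) and the dimmer Pck2 probe set low at 5.87 (300 mg/kg, replicate 2).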

How the results depend on the processing

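Every member count in a dose comparison stayed at 0 under the alternatives run, apart from the trends. With dose in mg/kg, 1 member (Pc) was called in liver and 1 (Pc) in kidney, and over single arrays left out the count was 0 to 1 in liver. Between untreated organs 4 to 7 members were called, 4 under the stricter filter, which tests fewer members. With the replicate number as a block, 0 members were called at 500 mg/kg in liver (smallest adjusted p = 0.309), and Pck1 in kidney at 500 mg/kg turned to 0.0366, as it did with array weights (0.0716). Fbp1 there turned to 0.00354 with array weights and 0.00796 with quantile normalization. The Pfkfb1 trend in liver turned to 0.000169 per mg/kg. Without both kidneys of high fat transcripts, chosen after the data were seen, Pfkfb1 in kidney turned to -0.13 at 500 mg/kg and to -0.00730 per rank, and its liver minus kidney effect to 0.27 (0.0871 with array weights), and that of Pygl to 0.0282. None of these was called, and the cause was not tested. Correlated pairs without removal of the dose means numbered 6 in liver and 4 in kidney (3 without that pair).

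With 1 array left out, the differences at 500 mg/kg ran from -0.0287 to 0.0775 (Gys2, liver), -0.50 to 0.0462 (Pck1, liver), -0.0288 to 0.04996 (Fbp1, kidney), -0.13 to 0.0572 (Pck1, kidney), -0.13 to 0.48 (Pfkfb1, kidney) and -0.10 to 0.10 (Slc2a2, kidney). The liver minus kidney effects ran from -0.49 to 0.0508 (Pck1), -0.33 to 0.27 (Pfkfb1) and -0.17 to 0.0282 (Pygl), and the liver slopes per rank from -0.0145 to 0.00636 (Pfkfb1) and -0.000139 to 0.00672 (Pygl). Signals near the floor of the array limit Gys2 and Pfkfb1 in kidney and Ppargc1a in liver.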
